A study of Mus musculus with 119 samples.

Results

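The genes described here are 43 type I interferon-stimulated genes of the mouse, taken by symbol from a list. The list was chosen with earlier results of these data known. All 43 were present among the 18098 genes in the data and were tested. They were measured by RNA-seq in bone marrow–derived macrophages (BMDMs), primary macrophages grown from mouse bone marrow, on a C57BL/6 background, which were left without LPS or given LPS at 100 ng/ml, a bacterial lipid that activates TLR4. Untreated wild-type (WT) cells gave 6 libraries without LPS, 6 after 0.5 h, 6 after 1 h and 4 after 2 h of LPS. Map3k8[D270A] cells, in which the kinase TPL-2 carries a catalytically inactive allele, gave 6 libraries at each of these times, and Elk1-/-Elk4-/- cells, which lack a pair of the ternary complex factors, gave 4 at each. Nfkb1[SS/AA] cells, whose p105 protein cannot be phosphorylated by the IKK complex and therefore keeps hold of TPL-2, gave 6 libraries at each of the times up to 1 h. WT cells pre-incubated for 10 min with PD0325901, an inhibitor of MKK1/2, at 0.1 µM gave 6 libraries after 0.5 h and 6 after 1 h of LPS, and 3 libraries each after 10, 40 and 70 min of the inhibitor alone, beside 3 libraries of WT cells given the solvent DMSO for 10 min. WT cells pre-incubated for 10 min with RSKi47, an inhibitor of RSK, at 2 µM gave 4 libraries each without LPS and at 1 and 2 h, and 3 at 0.5 h. The mutations were carried by the whole animal, so that the bone marrow cells developed with them, whereas the inhibitors acted for minutes to hours on WT cells. Untreated WT libraries were available only from the experiment that also held the Map3k8[D270A] cells. For the other arms, genotype or inhibitor and experiment cannot be told apart.

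Type I interferons are secreted cytokines. In macrophages TLR4 activates TBK1 through the adaptor TRIF, the transcription factor IRF3 then switches on Ifnb1, which encodes IFN-β, and the secreted protein binds the receptor IFNAR1–IFNAR2 on the same and on neighbouring cells. The receptor-bound kinases JAK1 and TYK2 then activate the complex ISGF3, of which STAT2 and IRF9 are parts, and ISGF3 binds interferon-stimulated response elements (ISRE) in front of its target genes. Another element, GAS, is known mainly from genes that respond to IFN-γ. The products of the target genes bind viral RNA, modify proteins, sense nucleic acids, restrict vacuolar pathogens and feed antigen presentation. The question posed by the study was how the TPL-2–ERK1/2 pathway controls gene expression, including that of Ifnb1, in LPS-stimulated macrophages, and the genes described here lie one step downstream of IFN-β.

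The 43 genes were grouped by role: 3 of the IFIT family, 3 of ISG15 conjugation, 5 of the OAS family, 9 other antiviral effectors, 6 of nucleic acid sensing, 8 of signalling and regulation, 7 interferon-inducible GTPases and 2 of antigen processing. Several lie next to each other in the genome: chromosomes 3 and 16 carry 6 each, chromosomes 5 and 11 carry 5 each, and all 3 IFIT genes lie on chromosome 19. RefSeq promoters of the GRCm38.p6 assembly, taken as the 250 bases before and 50 bases after a transcription start, were found for 32 of the 43 genes, with 39 promoters in all. The letters TTTCNNTTTC or their reverse complement GAAANNGAAA, the core of an ISRE, occurred in 19 of these 39 promoters (48.7%, in 18 genes), against 3.44% of all 32851 promoters in the table. The letters TTCNNNGAA, the core of a GAS element, which reads the same on both strands, occurred in 10 of the 39 promoters (25.6%) against 8.3% of all. By role, the ISRE letters were in 6 of 6 GTPase genes with a promoter, 3 of 4 sensing genes, 2 of 3 IFIT genes and 2 of 4 OAS genes. They were in 1 of 2 genes of ISG15 conjugation, 2 of 5 signalling genes, 2 of 6 other antiviral effectors and 0 of 2 antigen processing genes. A match of letters is a description of the sequence and not a bound site, and the absence of a match says only that these letters are not in this window. The promoters of 4 genes that the results turn on are printed to show where these letters lie, each as the 250 bases before the start, 5′ to 3′ on the strand of the gene, with ISRE and GAS letters in capitals. Gbp5 (chr3:142496684-142496933, plus strand) was the member with the largest LPS response, Isg15 (chr4:156200819-156201068, minus strand) encodes the ubiquitin-like modifier itself, and Ifit1 (chr19:34640639-34640888, plus strand) and Ifit3 (chr19:34583279-34583528, plus strand) differed in the time of their rise. The Ifit3 start in the promoter table lies inside the span given for that gene, which begins at 34583119.
Gbp5: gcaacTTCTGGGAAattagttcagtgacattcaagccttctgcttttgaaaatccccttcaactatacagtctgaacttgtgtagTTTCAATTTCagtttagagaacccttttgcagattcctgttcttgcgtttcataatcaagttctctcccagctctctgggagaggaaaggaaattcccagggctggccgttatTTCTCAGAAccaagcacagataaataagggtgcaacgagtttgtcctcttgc
Isg15: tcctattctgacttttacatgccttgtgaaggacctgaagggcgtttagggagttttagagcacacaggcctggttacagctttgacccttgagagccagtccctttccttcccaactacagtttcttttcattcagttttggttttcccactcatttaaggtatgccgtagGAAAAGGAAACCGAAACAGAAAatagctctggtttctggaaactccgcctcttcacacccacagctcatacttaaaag
Ifit1: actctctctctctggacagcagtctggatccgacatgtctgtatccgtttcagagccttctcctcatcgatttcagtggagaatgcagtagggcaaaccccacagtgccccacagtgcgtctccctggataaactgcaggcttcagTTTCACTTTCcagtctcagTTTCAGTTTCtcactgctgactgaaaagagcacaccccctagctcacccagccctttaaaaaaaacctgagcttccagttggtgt
Ifit3: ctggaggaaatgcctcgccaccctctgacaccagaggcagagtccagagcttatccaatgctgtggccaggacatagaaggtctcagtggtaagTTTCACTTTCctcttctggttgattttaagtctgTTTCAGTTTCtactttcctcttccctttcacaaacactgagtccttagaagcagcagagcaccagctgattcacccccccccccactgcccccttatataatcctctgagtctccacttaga
In Gbp5 the ISRE letters lay 165 to 156 bases before the start, and GAS letters lay at 245 to 237 and at 52 to 44 bases. In Isg15 the capitals are 3 overlapping ISRE matches that span 78 to 57 bases before the start. Ifit1 had ISRE letters at 104 to 95 and at 85 to 76 bases, and Ifit3 at 156 to 147 and at 122 to 113 bases, in the same pair of spellings, TTTCACTTTC and TTTCAGTTTC.

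The values used are on a log2 scale. A level is a value on that scale, a difference is between the means of groups, and a difference of 1 is taken as about 2-fold, although the sources used here do not state the transformation behind the values, so that a difference of 1 need not be exactly 2-fold. The files do not give the depth of each library and the study's methods give only a typical yield, so that precision was judged from the replicates. Where the labels do not say that replicates came from separate animals or cultures, p-values measure only the spread between these libraries. Tests are those of limma, a linear model fitted across all genes with p-values adjusted over all of them, and a gene is called, or said to be higher, lower or to have risen, at an adjusted p below 0.05. The cultures carried the markers of macrophages: the mean level of 8 macrophage markers ran from 14.02 to 14.44 over all libraries, and each of the 8, among them Lyz2, Cd68 and Csf1r, had a median level between 10.58 and 18.11. Library means of the other lists were 2.5 to 5.71 for 8 neutrophil genes, 2.79 to 3.41 for 6 genes of plasmacytoid dendritic cells, 1.79 to 2.69 for 5 of conventional dendritic cells, -0.85 to -0.61 for 6 of T and NK cells, Ifng among them, and 2.34 to 3.47 for 4 of B cells. Of the genes in these other lists Tcf4, which macrophages also express, had a median level of 10.67. The neutrophil genes were not at one level in all arms: their mean ran from 2.55 to 3.44 in untreated WT, 2.5 to 3.33 in Map3k8[D270A], 2.87 to 3.78 in Nfkb1[SS/AA], 3.3 to 3.78 in DMSO-treated, 3.16 to 4.1 in PD0325901-treated, 3.06 to 3.92 in RSKi47-treated and 5.04 to 5.71 in Elk1-/-Elk4-/- libraries. The deleted genes checked the labels: Elk1 ran from 6.17 to 6.59 in the Elk1-/-Elk4-/- libraries and from 8.55 to 9.49 in all others, and Elk4 from 5.51 to 5.88 and from 6.88 to 8.56. The point mutations of the other genotypes leave no mark in these values. In bulk RNA, more cells that express a gene and more RNA per cell cannot be told apart.

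In WT cells the interferon-stimulated genes rose as a whole between 1 and 2 h of LPS, after Ifnb1. The mean level of the 43 genes was 10.17 ± 0.14 (SD, n = 6) without LPS, 10.12 ± 0.14 at 0.5 h, 10.30 ± 0.14 at 1 h (n = 6 each) and 12.11 ± 0.20 (n = 4) at 2 h. At 2 h every one of the 43 genes was higher than without LPS (limma, adjusted p below 0.05), with differences from 0.17 to 5.57 and a median of 1.49, and 29 of them rose by at least 1. Under quantile normalization 40 were higher, Oas2 and Oas3 were not called and Bst2 was lower, and without WT replicate 5 also 40 were higher. Among all genes tested, 34.7% were called higher and 36.8% lower in that comparison (27.4% and 46.6% under quantile normalization), and 7.72% rose by at least 1. Since the list was chosen with earlier results of these data known, these counts describe it and are not an independent test. From 1 to 2 h all 43 were higher as well (33.5% of all genes), apart from Bst2 under quantile normalization. For 40 of the 43 genes the 4 libraries at 2 h all lay above the 6 libraries without LPS, as they did for 29.2% of all genes.

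Ifnb1 (chromosome 4 from 88522025 to 88522794), which encodes IFN-β, came first. Its lowest, median and highest levels were 4.44, 4.61 and 4.74 without LPS, 4.48, 4.72 and 5.12 at 0.5 h, and 7.51, 7.94 and 8.4 at 1 h, and the 4 libraries at 2 h read 8.43, 8.19, 7.81 and 8.51. Ifnb1 therefore rose between 0.5 and 1 h, with no overlap between the libraries at 1 h and those without LPS, and the libraries at 2 h overlapped with those at 1 h. The differences from unstimulated cells were 3.34 (SE 0.13, limma adjusted p = 7.5e-30) at 1 h and 3.62 (SE 0.14, adjusted p = 1.47e-29) at 2 h, and the step from 1 to 2 h was 0.28 (SE 0.14, adjusted p = 0.0758).

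At 0.5 h none of the 43 genes was called in limma (median difference -0.04, with 2 lower and 0 higher at an unadjusted p below 0.05 and 0 by limma with a trend, beside 7.82% of all genes called higher and 3.81% lower). At 1 h 10 were higher and 2 lower, while 23.8% of all genes were higher and 23% lower, so that neither share of the members was above that of all genes. The 10 early genes were Gbp5 at 1.91, Isg15 at 1.11, Oasl1 at 1.05, Gbp2 at 0.59, Ifit1 at 0.55, Gbp3 at 0.53, Rsad2 at 0.52, Ifih1 at 0.44, Mx2 at 0.39 and Parp14 at 0.25. They came from every role group but antigen processing, with 3 of them guanylate-binding proteins. Of the 8 early genes with a promoter in the table, 7 had ISRE letters, against 11 of the 24 that were first called at 2 h, and GAS letters were in 1 of 8 and 9 of 24. The lower genes at 1 h were Stat2, a subunit of ISGF3, at -0.54 (SE 0.15, limma adjusted p = 0.00194), and Tor3a, a torsin-family ATPase, at -0.39 (SE 0.06, adjusted p = 3.59e-07). Both were then higher at 2 h than without LPS, by 1.08 and 0.88.

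Guanylate-binding and immunity-related GTPases, which act at the membranes of intracellular pathogens, held the single largest response. All 7 rose by at least 1 at 2 h, between 1.88 and 5.57 with a median of 2.54. Gbp5 (chromosome 3 from 142496934 to 142522344) had a lowest, median and highest level of 7.43, 7.89 and 8.03 without LPS and of 9.04, 9.74 and 10.36 at 1 h, and read 13.51, 13.40, 13.60 and 13.01 at 2 h. Its groups at 0, 1 and 2 h did not overlap. The difference at 2 h was 5.57 (SE 0.24, limma adjusted p = 4.46e-28).

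The IFIT proteins bind viral RNA or partner those that do. Ifit1 (chromosome 19 from 34640889 to 34650009) had a lowest, median and highest level of 9.85, 10.24 and 10.46 without LPS and of 10.34, 10.86 and 11.00 at 1 h, and reached 14.70, 14.56, 14.67 and 14.38 at 2 h, a difference of 4.39 (SE 0.16, limma adjusted p = 1.98e-31). Ifit2 and Ifit3, its neighbours on the chromosome, had reached no call at 1 h, at -0.11 and -0.27, and stood 3.24 and 2.17 above unstimulated cells at 2 h. The median of these 3 genes at 2 h, 3.24, was above that of the GTPase genes.

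ISG15 is attached to newly made proteins, HERC6 is its main ligase in the mouse, and USP18 removes it and also restrains the interferon receptor. Isg15 (chromosome 4 from 156199424 to 156200818) read between 9.60 and 10.02 without LPS, between 10.59 and 11.06 at 1 h, and 13.00, 12.97, 12.93 and 12.84 at 2 h. The difference at 2 h was 3.20 (SE 0.10, limma adjusted p = 8.9e-34), that of Usp18 was 2.09 and that of Herc6 0.92.

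The OAS family responded unevenly. The oligoadenylate synthetases make the second messenger that activates RNase L, and Oas1a, Oas2 and Oas3 rose by 0.55, 0.67 and 0.39 and the OAS-like gene Oasl2 by 0.99, whereas Oasl1 (chromosome 5 from 114923143 to 114937911), an OAS-like protein known to restrain translation of Irf7, rose by 4.23 (SE 0.19, limma adjusted p = 5.2e-27). Its levels went from between 8.26 and 8.91 without LPS to 12.80, 12.88, 13.05 and 12.59 at 2 h. Those of Oas3 went from between 11.25 and 11.78 to 11.94, 11.96, 11.96 and 11.60, so that one library at 2 h lay within the range without LPS. Oasl1 thus stood apart from the other 4 genes of the family.

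Among the other antiviral effectors the range was as wide. Mx2 (chromosome 16 from 97536081 to 97560901), a dynamin-like GTPase, read between 7.39 and 7.78 without LPS and 12.18, 12.29, 12.30 and 11.58 at 2 h, a difference of 4.52 (SE 0.18, limma adjusted p = 1.7e-29). Rsad2, which encodes viperin, rose by 4.06, its neighbour Cmpk2, a mitochondrial nucleotide kinase, by 3.66, and Mx1 by 3.74. Bst2, which encodes tetherin, gave the smallest difference of all 43 genes, 0.17 (SE 0.06, limma adjusted p = 0.0174), and turned lower under quantile normalization. Its levels were 12.01 to 12.29 without LPS and 12.31, 12.33, 12.24 and 12.23 at 2 h, which overlapped.

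Among the sensors the largest rise was that of Ifih1, which encodes the RNA helicase MDA5. Ifih1 (chromosome 2 from 62595618 to 62646255) went from between 10.34 and 10.55 to 13.33, 13.23, 13.30 and 13.00 at 2 h, a difference of 2.81 (SE 0.13, limma adjusted p = 1.65e-26). Zbp1, a sensor of Z-form nucleic acids, rose by 1.34, and Ddx58 (RIG-I), Eif2ak2 (PKR), Dhx58 (LGP2) and Adar, an RNA editing enzyme, by 0.99, 0.85, 0.68 and 0.66. Of the signalling genes and regulators, Parp14 (chromosome 16 from 35831892 to 35871518), an ADP-ribosyltransferase, rose most, from between 12.52 and 12.89 to 14.77, 14.70, 14.70 and 14.63, a difference of 2.02 (SE 0.11, limma adjusted p = 1.26e-22), followed by the ubiquitin ligase gene Dtx3l at 1.79. Tap1 (chromosome 17 from 34187556 to 34197225), the peptide transporter of antigen processing, rose by 1.04 (SE 0.11, limma adjusted p = 5.79e-12), and Psmb9, the immunoproteasome subunit gene beside it, by 0.46.

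**Figure D1:**
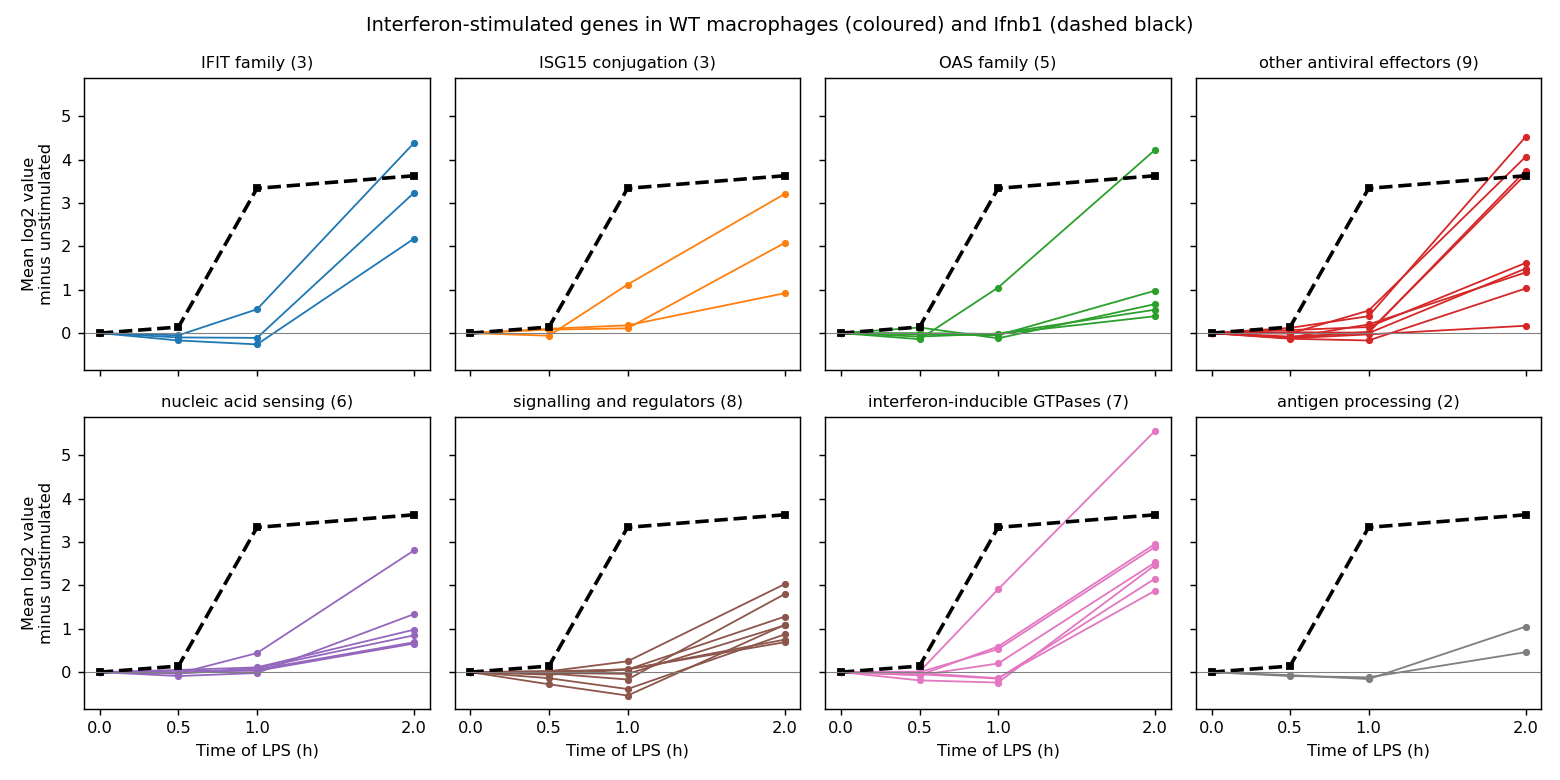
Mean level of each of the 43 genes in WT cells minus its mean without LPS (vertical axis, log2) against the time of LPS in hours, 1 panel for each role and 1 coloured line for each gene, with Ifnb1 as a dashed black line. Ifnb1 stood 3.34 above its start at 1 h, when only Gbp5, Isg15 and Oasl1 had risen by 1 or more, and all 43 genes lay above their start at 2 h in the values as deposited (Bst2 turned lower under quantile normalization).

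Of 18 other genes of the interferon pathway tested in the same fit, 12 were higher and 1 lower at 1 h (23.8% and 23% of all genes), and 17 were higher and 1 lower at 2 h (34.7% and 36.8%). The inhibitors of receptor signalling Socs3 and Socs1 were among the largest, at 5.13 and 1.53 at 1 h and 5.51 and 4.63 at 2 h, and the transcription factor gene Irf1 stood at 2.69 and 3.48. Irf9, the gene of an ISGF3 subunit, was not called at 1 h, at 0.00, and was at 0.65 at 2 h. Ifnar1 and Ifnar2, the receptor genes, rose by 1.14 and 0.86 at 2 h. The gene called lower at 2 h was the phosphatase gene Ptpn6, at -0.18.

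In Map3k8[D270A] cells Ifnb1 was higher than in WT cells, whereas 6 of the 43 interferon-stimulated genes were called higher at 2 h in the fit of both sets of replicates. Ifnb1 had a lowest, median and highest level of 8.72, 9.21 and 9.63 at 1 h and of 8.91, 9.27 and 9.45 at 2 h, all above every WT library at the same time. The differences were 1.25 (SE 0.13, limma adjusted p = 5.6e-11) at 1 h and 1.00 (SE 0.14, adjusted p = 1.5e-07) at 2 h. Among the 43 genes, 0 were called without LPS (0.606% of all genes higher and 0.833% lower) and 0 at 0.5 h (0.48% and 0.892%), with 1 lower and 0 higher at an unadjusted p below 0.05 without LPS and 0 at 0.5 h, and 0 at both by limma with a trend. Then 1 was higher at 1 h (5.14% of all genes) and 6 were higher and 0 lower at 2 h (14.6% and 13.1% of all genes), so that the share called higher was near that of all genes. A term for the set of replicates, described with the sets, gave 11 at 2 h (17% of all genes). No gene of the 43 had its Map3k8[D270A] libraries all above the WT libraries at 2 h (6.93% of all genes had), and the median difference was 0.14.

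The gene called at 1 h was Ifit1, at 0.44 (SE 0.14, limma adjusted p = 0.0361), a call that was lost without any of WT replicates 6, 7 or 9 or Map3k8[D270A] replicates 2, 3 or 5, with a range of 0 to 2 genes called. The genes called at 2 h were Ifit3 at 0.55 (SE 0.17, limma adjusted p = 0.0118), Cmpk2 at 0.51 (SE 0.18, adjusted p = 0.0271), Rsad2 at 0.46 (SE 0.13, adjusted p = 0.00633), Dhx58 at 0.32 (SE 0.11, adjusted p = 0.0248), Adar at 0.29 (SE 0.10, adjusted p = 0.0278) and Dtx3l at 0.22 (SE 0.09, adjusted p = 0.0459). The count was 1 without WT replicate 7 (14.1% of all genes) or Map3k8[D270A] replicate 2 or 3 (13.1% each), 2 without Map3k8[D270A] replicate 1 (13.4%), and 12 without Map3k8[D270A] replicate 4 (15.1%) or 5 (13.6%). One fit of the libraries of all arms gave 1 (15.3%).

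The 6 Map3k8[D270A] libraries at 2 h fell into separate levels. The libraries form a first set, WT replicates 4 to 6 and Map3k8[D270A] replicates 1 to 3, and a second set, WT replicates 7 to 9 and Map3k8[D270A] replicates 4 to 6. Over all genes the deviations of libraries from their group means went together within a set (median correlation 0.275 to 0.297 over the times) and apart between sets (-0.315 to -0.234). Such deviations cancel out within each group, so that the values between sets are not separate from those within sets. The labels do not name these sets, and only 1 WT library of the second set was available at 2 h. The mean level of the 43 genes at 2 h was 12.74, 12.74 and 12.83 in Map3k8[D270A] replicates 1 to 3 and 11.66, 11.70 and 11.85 in replicates 4 to 6, against 12.20, 12.16 and 12.25 in WT replicates 4 to 6 and 11.82 in WT replicate 7. Map3k8[D270A] libraries therefore lay above WT in the first set and around the WT library in the second. Marker levels moved with the sets too. At 2 h the mean of the 8 neutrophil genes was 2.67 to 2.74 in the first set and 2.91 to 3.44 in the second, and that of the 8 macrophage genes was 14.32 to 14.43 and 14.14 to 14.21. Their part in the result was not tested.

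Within the first set at 2 h, 40 of the 43 genes were higher in Map3k8[D270A] cells in limma (23.8% of all genes) and 0 were lower, with differences from 0.06 to 1.26 and a median of 0.55. Within the second set the differences ran from -0.57 to 0.26 with a median of -0.06, 16 of the 43 lying above 0. The second set rests on 1 WT library at 2 h, so that only sizes are given for it. The Map3k8[D270A] difference in the first set minus that in the second ran from 0.08 to 1.66 with a median of 0.68. The sets were compared with each other after the values were seen, so that this comparison describes the split and does not support it. Ifnb1 did not divide in this way: its difference at 2 h was 0.95 in the first set and 0.88 in the second.

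Ifit3 and Cmpk2 were called in the fit of both sets, and their values are given by set. Ifit3 (chromosome 19 from 34583119 to 34588982) read 13.92, 14.12 and 14.09 in Map3k8[D270A] replicates 1 to 3 and 12.93, 12.96 and 13.21 in replicates 4 to 6, against 13.15, 12.99 and 13.04 in WT replicates 4 to 6 and 12.77 in WT replicate 7. Cmpk2 (chromosome 12 from 26469117 to 26479837) read 15.33, 15.34 and 15.40 and then 14.14, 14.13 and 14.32, against 14.44, 14.34 and 14.27 and then 14.02 in WT. The differences between the sets were 0.73 for Ifit3 and 0.84 for Cmpk2. The largest over the 43 genes was that of Iigp1, at 1.66, and those of Oas2 and Gbp5 were 1.19 and 1.09. These sizes rest on 1 WT library in the second set. Gbp5 went from a mean of 13.50 in WT to 14.57 in Map3k8[D270A] cells in the first set, and from 13.01 to 12.98 in the second, and Oas2 from 11.23 to 12.17 and from 10.27 to 10.01.

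At 1 h the sets stood the other way for the few genes called. The difference between the sets was -0.82 for Gbp5 and -0.38 for Ifih1, and these were the only 2 of the 43 genes called (0.236% of all genes higher and 0.816% lower). Gbp5 read 10.36, 10.17 and 10.28 in WT replicates 4 to 6 and 9.16, 9.32 and 9.04 in WT replicates 7 to 9 at 1 h, whereas the 6 Map3k8[D270A] libraries read 10.26, 9.92, 10.41, 9.70, 10.29 and 9.78. The WT libraries of the sets were thus apart for Gbp5 at 1 h, and those of Map3k8[D270A] cells overlapped.

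**Figure D2:**
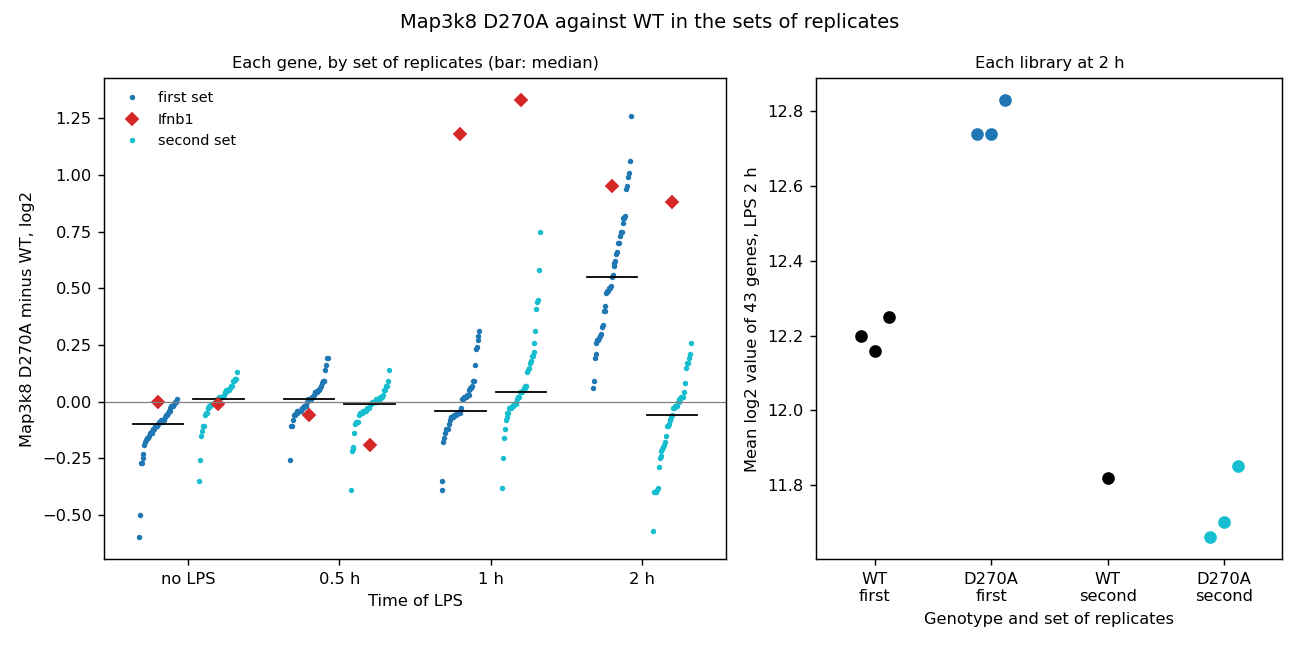
Left, the Map3k8[D270A] minus WT difference (log2) of each of the 43 genes, sorted, in the first (blue) and second (light blue) set of replicates at each time, with a bar at the median and Ifnb1 as a red diamond. Right, the mean level of the 43 genes in each library at 2 h, WT in black and Map3k8[D270A] in colour, which shows 12.74 to 12.83 and 11.66 to 11.85 in the Map3k8[D270A] libraries of the sets.

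Measured from their own unstimulated level, the genes were called in Map3k8[D270A] cells as follows: 10 were higher and 2 lower at 1 h (21.8% and 20.1% of all genes), and 43 of 43 were higher at 2 h (34.9%; Bst2 not under quantile normalization), with a median of 1.61 and a range from 0.27 to 6.02. The LPS response at 2 h differed between the genotypes for 1 gene, Ifit3, by 0.68 (SE 0.23, limma adjusted p = 0.035). For 6.94% of all genes the response was larger in Map3k8[D270A] cells and for 8.6% smaller. Within the first set alone 40 of the 43 genes responded more in Map3k8[D270A] cells (16.6% of all genes), with a median of 0.68. Within the second, which held 1 WT library at 2 h, the median was -0.09 and no calls are given. With the replicate number as a block, which pairs libraries of the same number over time, 3 genes responded more (14.2% of all genes). At 1 h the response differed for 0 of the 43 genes (0.724% larger and 1.3% smaller of all), with 2 larger at an unadjusted p below 0.05 and 0 by limma with a trend. With the block it was larger for Ifit1 alone (1.52% of all genes larger). The call of Ifit3 at 2 h rested on single libraries, since it was lost without any one of WT replicates 4 to 8 or Map3k8[D270A] replicates 1 to 3, and 6 genes were called without Map3k8[D270A] replicate 5 (6.81% of all genes) and 4 without replicate 4 (7.22%) or 6 (6.62%). The response of Ifnb1 was larger in Map3k8[D270A] cells by 1.26 at 1 h and 1.01 at 2 h.

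Elk1-/-Elk4-/- cells had more RNA of nearly all interferon-stimulated genes than WT cells, and they had it before LPS was added. Without LPS 40 of the 43 genes were higher (27.2% of all genes), with a median difference of 0.82, and none was lower. After LPS 41 were higher at 0.5 h and again at 1 h, and 37 at 2 h (22.4%, 27.2% and 27.7% of all genes), with medians of 0.75, 0.85 and 0.67. For 42 of the 43 genes every Elk1-/-Elk4-/- library without LPS lay above every WT library, as it did for 20.7% of all genes. Markers of other cells stood apart in these libraries too. The mean of the 8 neutrophil genes without LPS was 5.04 to 5.55 against 2.64 to 3.12 in WT, and each of the 8 was above WT in every library. Over all times S100a9 ran from 8.69 to 9.75 against 4.52 to 6.46 in WT, S100a8 from 7.6 to 8.48 against 4.45 to 5.76, Ngp from 7.88 to 9.1 against 3.53 to 5.19 and Ltf from 7.53 to 8.41 against 3.39 to 4.8, whereas Elane did not pass 0.95 or Mpo 2.23. The mean of the 4 B cell genes without LPS was 2.95 to 3.47 against 2.54 to 2.75, with 3 of the 4 above WT in every library, and that of the 8 macrophage genes was 14.07 to 14.16 against 14.22 to 14.37. Among the other lists 2 of 6 genes of plasmacytoid dendritic cells, 2 of 5 of conventional dendritic cells and 0 of 6 of T and NK cells lay above WT in every library. Their part in the result was not tested. Ifnb1 without LPS read 4.61, 5.05, 5.10 and 4.56, which overlapped with the WT levels.

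Iigp1, which encodes the immunity-related GTPase IRGA6, and Ifi44, an interferon-induced gene, differed most at 2 h. Iigp1 read 8.37, 7.96, 8.43 and 7.82 without LPS and 11.27, 11.31, 11.32 and 11.22 at 2 h in Elk1-/-Elk4-/- cells. In WT cells it ran from 5.92 to 6.63 without LPS and read 9.13, 8.78, 9.26 and 8.26 at 2 h. The difference was 1.76 (SE 0.37, limma adjusted p = 9.73e-05) without LPS and 2.42 (SE 0.41, adjusted p = 2.28e-06) at 2 h.

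Ifi44 (chromosome 3 from 151730922 to 151749910) read 9.14, 8.81, 9.22 and 8.71 without LPS and 9.41, 10.00, 10.06 and 9.60 at 2 h, against 8.47, 8.26, 8.87 and 7.83 in WT cells at 2 h, a difference of 1.41 (SE 0.27, limma adjusted p = 1.78e-05). All 3 IFIT genes were higher at 2 h, by 0.67 to 1.30, as were all 7 GTPase genes, by 0.65 to 2.42, and all 8 signalling genes, by 0.39 to 0.95. The 6 genes not called at 2 h were Mx1, Mx2, Oas2, Ifih1, Samd9l and Psmb9. Mx2 read 12.01, 12.40, 12.15 and 12.28, within the range of WT apart from the single highest value.

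Ifnb1 was higher in Elk1-/-Elk4-/- cells after LPS. It read 9.73, 9.40, 9.54 and 10.05 at 1 h and 8.86, 8.86, 9.11 and 9.27 at 2 h, above every WT library, with differences of 1.73 and 0.79. From 1 to 2 h its difference was -0.65 (limma adjusted p = 0.000286), a call that was lost in one fit of all libraries (adjusted p = 0.0536). Over the same hour 42 of the 43 genes rose (34.8% of all genes), with a median of 1.31.

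The LPS response itself was called larger for none of the 43 genes. From their own unstimulated level 8 genes were higher and 2 lower at 1 h (16.6% of all genes in each direction), and 41 of 43 were higher at 2 h (35.2%), with a median of 1.42 beside 1.49 in WT cells. Oas2 and Oas3 were the 2 not called. Tested against the WT response, 0 genes rose more and 2 rose less at 2 h (8.17% and 8.76% of all genes): Isg15 by -0.68 (SE 0.15, limma adjusted p = 0.000818) and Rtp4, an interferon-induced transmembrane protein, by -0.54 (SE 0.13, adjusted p = 0.00164). In one fit of all libraries both calls were lost, with 0 of the 43 genes called in limma and 0 more and 4 less at an unadjusted p below 0.05. Isg15 rose from 10.91, 10.57, 10.72 and 10.52 to 13.16, 13.13, 13.37 and 13.16 in Elk1-/-Elk4-/- cells. Its level at 2 h was 0.27 above WT, against 0.95 above WT at the start. At 1 h the response differed for 0 of the 43 genes (0.404% larger and 0.942% smaller of all), with 2 larger and 1 smaller at an unadjusted p below 0.05 and 0 by limma with a trend.

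Of the pathway genes without LPS, 4 of 18 were higher and 3 lower, shares below those of all genes (27.2% higher and 24.6% lower). The higher ones included Irf7, a transcription factor of interferon genes and itself interferon-induced, at 1.54, and Irf9 at 0.41. At 2 h Irf7 was at 1.26, while Socs3 was at -0.73 and Ifnar1 at -0.52. In Map3k8[D270A] cells at 2 h Socs3 was at -0.76 and Ifnar1 at -0.58 as well, and Irf7, which was not called, was at -0.01, with 0.38 in the first set of replicates and -0.18 in the second.

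**Figure D3:**
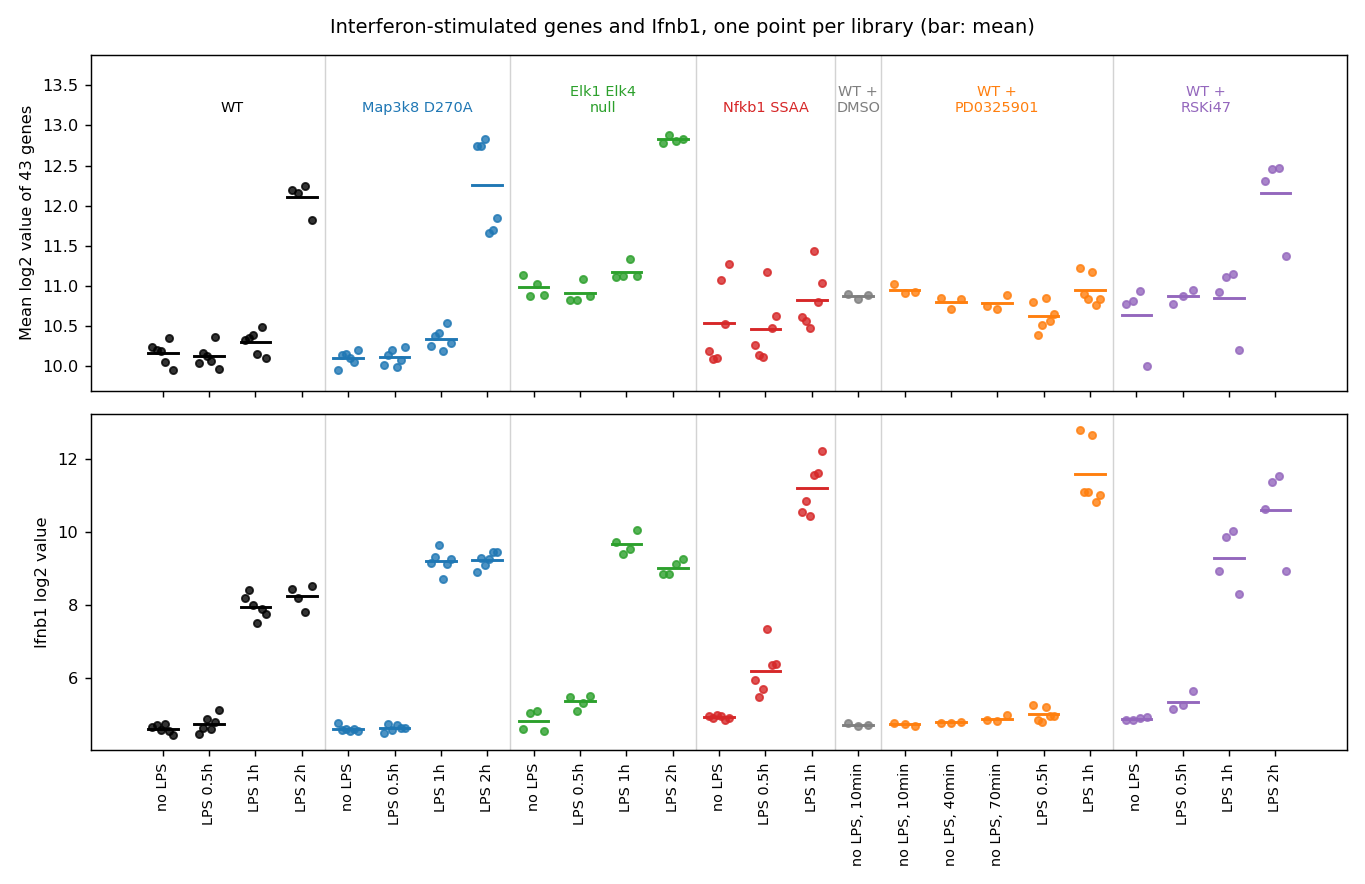
Mean level of the 43 genes (upper panel) and level of Ifnb1 (lower panel) on the log2 scale in each library, by cells and by time of LPS or inhibitor, with a bar at the group mean. The 43 genes stood at about the same level without LPS in WT and Map3k8[D270A] cells (10.17 and 10.10) and higher in Elk1-/-Elk4-/- cells (10.98) and in WT cells given DMSO (10.88), and the Map3k8[D270A] libraries at 2 h fell into a higher and a lower group.

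A higher level without LPS was also seen in WT cells of another experiment. WT cells given DMSO for 10 min, which carry no mutation and received no inhibitor, had a mean level of the 43 genes of 10.90, 10.84 and 10.89, above the highest untreated WT library at 10.35. Of the 43 genes 35 were higher than in untreated WT cells and 0 lower (limma; 12.5% and 11.1% of all genes), with a median of 0.73 and a range from 0.12 to 1.45, and for 41 genes the DMSO libraries all lay above the untreated ones (15% of all genes). The mean of the 8 neutrophil genes was 3.3 to 3.78 in the DMSO libraries against 2.64 to 3.12 in untreated WT without LPS, and its part in the result was not tested. Ifit2 differed by 1.45, Ifit3 by 1.39, Cmpk2 by 1.18 and Isg15 by 1.11. Ifnb1 did not stand out, with 4.76, 4.69 and 4.71 (difference 0.11, limma adjusted p = 0.84). Among 20 pathway genes 3 were higher, Irf1 at 0.50, Irf9 at 0.36 and the adaptor gene Ticam1 at 0.28, and 0 were lower. DMSO and experiment cannot be told apart in this comparison.

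Set against these DMSO libraries, the raised level in unstimulated Elk1-/-Elk4-/- cells remained for 2 genes, Ifi44 by 1.46 and Oasl1 by 0.66 (19.7% of all genes were higher and 18.4% lower), and Iigp1 stood 1.03 higher at an adjusted p of 0.0508. For Ifi44 the DMSO libraries read 7.44, 7.51 and 7.59, within the untreated WT range of 6.86 to 7.62, and for Iigp1 they read 7.18, 7.14 and 7.03. Against the same libraries 0 genes were higher and 4 lower in unstimulated Nfkb1[SS/AA] cells (9.32% and 8.75% of all genes), and 0 were higher and 3 lower in cells given RSKi47 (21.8% and 20.8%). The reference thus decides the count of raised genes without LPS in these arms. This reference was chosen after the data were seen.

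**Figure D4:**
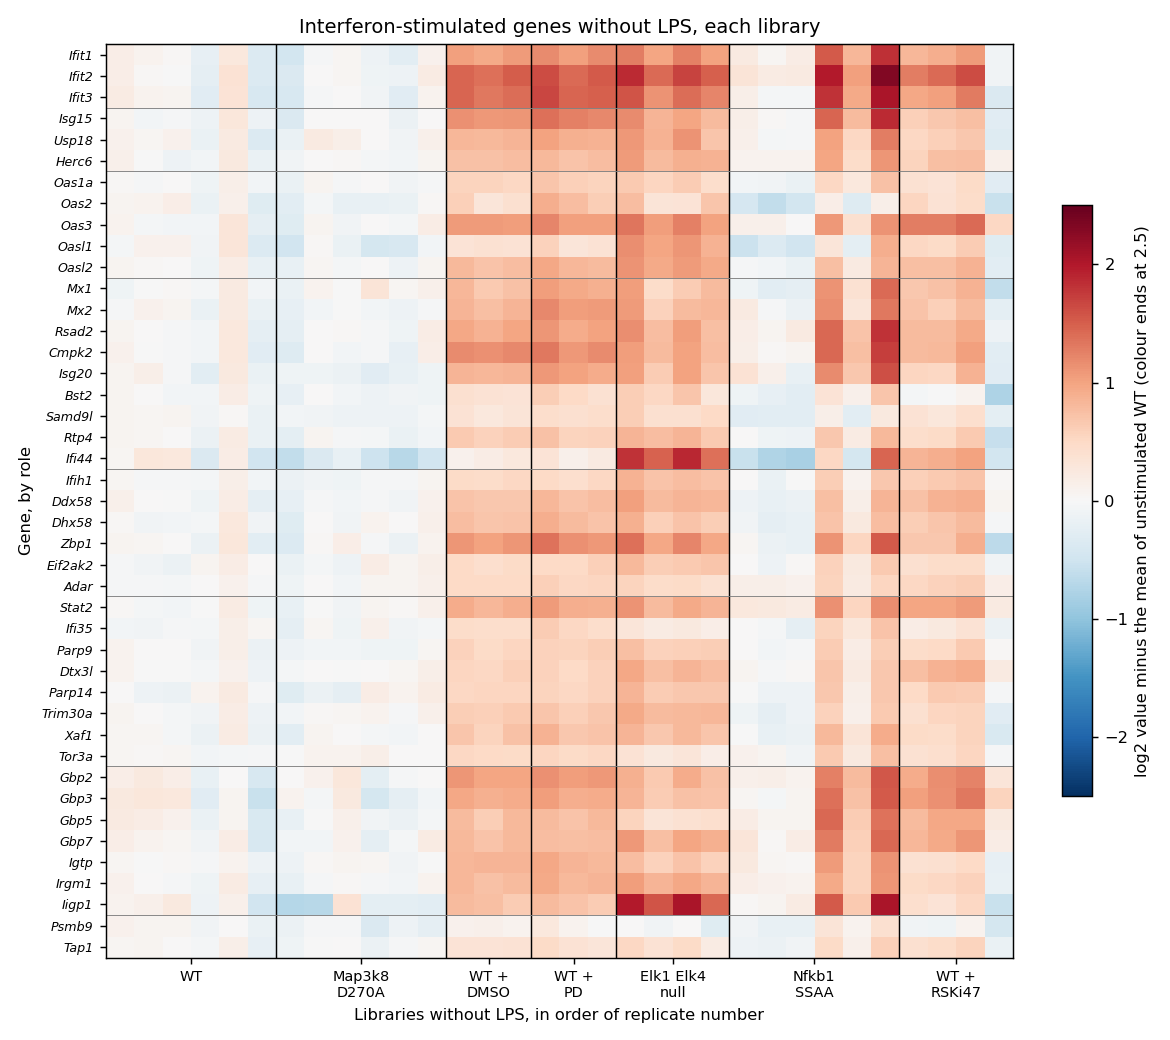
Level of each of the 43 genes (rows, by role) in each library without LPS (columns, in order of replicate number within each kind of cell) minus the mean of unstimulated WT, as colour from blue (lower) to red (higher) on the log2 scale. Most genes are red in DMSO, PD0325901 and Elk1-/-Elk4-/- libraries, Nfkb1[SS/AA] replicates 4 to 6 and RSKi47 replicates 1 to 3, and in the Elk1-/-Elk4-/- libraries Iigp1 ran from 7.82 to 8.43 and Ifi44 from 8.71 to 9.22.

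Nfkb1[SS/AA] cells had the largest difference in Ifnb1 at 0.5 h, with a smaller difference in the 43 genes. Ifnb1 read 5.49, 6.16 and 7.35 as lowest, median and highest at 0.5 h and 10.44, 11.21 and 12.22 at 1 h, all above every WT library, with differences of 1.45 and 3.26. Of the 43 genes 19 were higher without LPS, 18 at 0.5 h and 23 at 1 h, and 0 were lower (16.9%, 16.7% and 20.5% of all genes higher), with medians of 0.29, 0.25 and 0.43. At 1 h these included all 3 IFIT genes and all 7 GTPase genes, 5 of 9 other antiviral effectors and 5 of 8 signalling genes. They also included 2 of 3 genes of ISG15 conjugation and 1 of 5 of the OAS family, but 0 of 6 sensing genes and 0 of 2 antigen processing genes. The mean of the 6 genes of plasmacytoid dendritic cells was 3.08 to 3.19 in these cells without LPS against 2.86 to 2.94 in WT, with 3 of the 6 above WT in every library, and 3.06 to 3.29 against 2.9 to 2.97 at 1 h, and its part in the result was not tested.

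Ifit2 (chromosome 19 from 34550550 to 34576534) led at 1 h. Its libraries read 12.70, 12.42, 12.50, 14.46, 13.39 and 13.83 in order of replicate number, against a WT range of 11.19 to 11.85, a difference of 1.78 (SE 0.28, limma adjusted p = 8.58e-08). Ifit1 read 11.82, 11.77, 11.79, 13.42, 12.48 and 12.89, a difference of 1.62 (SE 0.22, limma adjusted p = 9.76e-10). Both genes were above the WT range in every Nfkb1[SS/AA] library, and replicates 4 to 6 were above replicates 1 to 3.

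The replicates were apart without LPS as well. There Ifit2 read 11.87, 11.75 and 11.76 in replicates 1 to 3, within the WT range of 11.20 to 11.91, and 13.53, 12.56 and 13.85 in replicates 4 to 6. With replicates 1 to 3 alone, limma called 0 genes without LPS, 0 at 0.5 h and 10 at 1 h (10.6%, 10.6% and 17.4% of all genes higher), with 0 higher and 2 lower at an unadjusted p below 0.05 without LPS and 1 in each direction at 0.5 h. With replicates 4 to 6 alone 39, 32 and 35 were called (16.2%, 16.1% and 18.4% of all genes). Without replicate 6 the count without LPS was 5 (14.9% of all genes), without replicate 4 it was 10 (15.2%), and without replicate 4 the count at 0.5 h was 7 (15.4%). The split by replicate number was chosen after these values were seen, so that these counts describe it and do not support it. Marker means differed along it: without LPS that of the macrophage genes was 14.07 to 14.21 in replicates 1 to 3 and 14.22 to 14.34 in replicates 4 to 6, and at 1 h that of the neutrophil genes was 3.13 to 3.22 and 3.24 to 3.78 and that of the B cell genes 2.72 to 2.98 and 2.56 to 2.62. Their part in the result was not tested. The 10 genes called at 1 h in replicates 1 to 3 were a share near that of all genes. In these groups of replicates Ifnb1 at 1 h read 10.55, 10.84 and 10.44 and then 11.57, 11.61 and 12.22.

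From their own start, 12 genes were higher and 3 lower at 1 h in Nfkb1[SS/AA] cells (22.5% and 21.9% of all genes), with a median of 0.07. No gene responded differently from WT in limma (1.77% of all genes more and 4.3% less, with 4 members more at an unadjusted p below 0.05 and 0 by limma with a trend), the largest differences being those of Ifit1 at 0.84 (adjusted p = 0.0885) and Gbp3 at 0.81 (adjusted p = 0.0891). With the replicate number as a block 7 genes responded more (3.95% of all genes), and with replicates 1 to 3 alone 3 did (2.51%). Ifnb1 responded more by 2.94.

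Under PD0325901 Ifnb1 reached its highest level of the series. It read 12.80, 11.09, 11.08, 12.65, 10.82 and 11.01 at 1 h of LPS, a difference from untreated WT cells of 3.62 (SE 0.25, limma adjusted p = 3.78e-23), while at 0.5 h the difference of 0.25 was not called. Of the 43 genes 32 were higher than in untreated WT cells at 0.5 h and 35 at 1 h, and 0 were lower (14.5% and 16.4% of all genes higher), with medians of 0.47 and 0.58. The mean of the 8 neutrophil genes was 3.65 to 3.80 against 2.55 to 3.13 in WT at 0.5 h, and 3.73 to 4.10 against 2.66 to 3.44 at 1 h. Its part in the result was not tested. Ifit2 ran from 12.96 to 13.89 at 1 h, a difference of 1.91 (SE 0.28, limma adjusted p = 2.54e-08), and Ifit1 from 12.18 to 12.92, a difference of 1.74 (SE 0.22, adjusted p = 1.62e-10). No library of either gene overlapped with WT.

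The medians of 0.47 and 0.58 stood beside a median of 0.73 for cells given DMSO without LPS against untreated WT, whereas the IFIT genes stood 1.49 to 1.91 above WT at 1 h under the inhibitor and 1.01 to 1.45 in the DMSO cells. The inhibitor for 10 min against DMSO called 0 of the 43 genes and none of all genes (0%), with differences from -0.02 to 0.33 and a median of 0.07. None passed an unadjusted p below 0.05 or limma with a trend. For 8 of the genes the 3 inhibitor libraries all lay above the 3 DMSO libraries (8.63% of all genes), and a lack of calls does not show that the values are alike. Measured from 10 min of the inhibitor, 6 genes were higher and 3 lower at 1 h of LPS (20.4% and 20.9% of all genes), with a median of -0.15, and under quantile normalization 5 were higher and 12 lower (16.9% and 29%). Measured from 70 min of the inhibitor, the start nearest in time, 6 were higher and 2 lower (21.9% and 21.7% of all genes), with a median of 0.05. From the 10 min start none differed in response from WT (1.01% of all genes more and 2.63% less, and 0 members at an unadjusted p below 0.05 or by limma with a trend), and from the 70 min start none did either (1.1% and 2.48% of all genes, with 1 member more at an unadjusted p below 0.05 and 0 by limma with a trend). The response of Ifnb1 was larger by 3.5 from the 10 min start. The inhibitor without LPS for 70 against 10 min called 0 of the 43 genes, also at an unadjusted p below 0.05 or by limma with a trend (2.62% higher and 3.47% lower of all), with a median of -0.16, and for 18 genes the 70 min libraries all lay below the 10 min libraries (18% of all genes). The libraries under PD0325901 and LPS lay close in pairs (1 with 4, 2 with 5, 3 with 6), and the labels do not say whether a pair came from one culture. If it did, the 6 libraries count as 3. With each pair averaged, 17 genes were higher at 0.5 h (8.18% of all genes) and 31 at 1 h (10.4%), and Ifnb1 at 1 h was 11.57 ± 1.0 (SD, n = 3 pairs).

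In cells given RSKi47 Ifnb1 kept rising to 2 h, and 0 of the 43 genes responded more at 2 h than in WT cells (10.6% of all genes did). How many responded less depended on whether the replicate number was used as a block, as given below. Ifnb1 read 8.92, 9.85, 10.03 and 8.31 at 1 h and 10.62, 11.36, 11.52 and 8.92 at 2 h, a difference from WT of 2.37 at 2 h and a step of 1.33 from 1 to 2 h. Of the 43 genes 24 were higher than in WT cells without LPS, 38 at 0.5 h, where only replicates 1 to 3 were available, and 29 at 1 h (26.8%, 23.7% and 26.5% of all genes). At 2 h 2 were higher and 1 lower (27.5% and 24.6% of all genes), with a median of 0.07. The share called at 2 h lay below that of all genes.

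Oas3 (chromosome 5 from 120753098 to 120777684) was higher at 2 h by 0.94 (SE 0.21, limma adjusted p = 7.49e-05), reading 12.98, 13.09, 13.21 and 11.94 after 12.75, 12.75, 12.89 and 11.99 without LPS, so that the level at 2 h was close to its own start. Herc6 (chromosome 6 from 57580992 to 57665136) was higher by 0.48 (SE 0.18, limma adjusted p = 0.0234), reading 11.39, 11.61, 11.66 and 10.90. Mx2 was lower by 0.65 on the log2 scale (difference -0.65, SE 0.25, limma adjusted p = 0.0233), reading 11.79, 11.84, 11.70 and 10.44. Replicate 4 had the lowest value in each case. It was the lowest of the 4 in the mean of the 43 genes too, at 10.01 without LPS, 10.20 at 1 h and 11.37 at 2 h, and it had the lowest Ifnb1 at 1 and 2 h. Its mean of the 8 macrophage genes was also the lowest, at 14.09, 14.13 and 14.02, against 14.25 to 14.33, 14.34 to 14.41 and 14.26 to 14.38 in replicates 1 to 3, and its part in the result was not tested.

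Without replicate 4, 38 genes were higher than in WT cells without LPS (25% of all genes), and 14 were higher and 0 lower at 2 h (27.8% and 23.6%), the 14 being a share near that of all genes. Without replicate 2 or replicate 3, 15 were higher without LPS (24% and 24.5% of all genes), and at 2 h 1 was higher and 2 lower (25.2% and 23.3% without replicate 2, 25.4% and 23.4% without replicate 3). The counts in this arm therefore depend on single libraries.

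From their own start, 6 genes were higher and 1 lower at 1 h (15% and 14% of all genes) and 40 higher at 2 h (32.5%), with medians of 0.13 and 1.18, and Oas2, Oas3 and Stat2 were the 3 not called at 2 h. Blocked on the replicate number, 9 were higher and 2 lower at 1 h (20.1% and 18.5%). Against the WT response at 2 h, 0 genes rose more and 3 rose less (10.6% and 10.4% of all genes): Mx2 by -1.11 (SE 0.34, limma adjusted p = 0.0106), Isg15 by -0.76 (SE 0.28, adjusted p = 0.0397) and Dtx3l by -0.51 (SE 0.19, adjusted p = 0.037). The median of this difference over the 43 genes was -0.37. Blocked on the replicate number, 23 genes rose less and 0 more (15.2% and 16.6% of all genes). At 1 h the response differed for 0 genes (2.26% of all more and 3.27% less), also at an unadjusted p below 0.05 or by limma with a trend. For the response at 2 h without the block, only 1 gene was called when any one of WT replicates 4, 5, 6 or 9 or RSKi47 replicates 1, 2 or 3 was left out. Isg15 ended at 12.56, 12.76, 12.81 and 12.30, below its WT levels at 2 h.

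Set side by side, the level of Ifnb1 and the median LPS response of the 43 genes were in different orders over the arms. These orders were not tested. At 1 h the mean level of Ifnb1 was 7.95 ± 0.32 (SD, n = 6) in WT, 9.20 ± 0.30 (n = 6) in Map3k8[D270A], 9.28 ± 0.81 (n = 4) in RSKi47-treated, 9.68 ± 0.28 (n = 4) in Elk1-/-Elk4-/-, 11.20 ± 0.70 (n = 6) in Nfkb1[SS/AA] and 11.58 ± 0.90 (n = 6 libraries, close in pairs) in PD0325901-treated cells. The libraries of neighbours in this order overlapped from Map3k8[D270A] to Elk1-/-Elk4-/- cells, and so did those of the last pair. In the same order the median response of the 43 genes from their own start was 0.03, 0.10, 0.13, 0.05, 0.07 and -0.15, the last from 10 min of PD0325901 and 0.05 from 70 min. In limma without a block, 0 of the 43 genes differed from WT in this response in any arm. The order of these medians therefore cannot be read. Ifit1, an example chosen after its values were seen and given with no test, responded by 0.55, 1.11, 0.79, 1.05, 1.40 and 1.16, the last being 1.45 from 70 min.

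At 2 h Ifnb1 stood at 8.24 ± 0.31 (SD, n = 4) in WT, 9.02 ± 0.20 (n = 4) in Elk1-/-Elk4-/-, 9.24 ± 0.21 (n = 6) in Map3k8[D270A] and 10.60 ± 1.19 (n = 4) in RSKi47-treated cells, and the median response of the 43 genes was 1.49, 1.42, 1.61 and 1.18. The libraries of the last 3 overlapped. The arm with the highest mean Ifnb1 thus had the smallest median response. These arms share the WT libraries only where a difference from WT is given, and each response is measured against the arm's own cells. No library of Nfkb1[SS/AA] or PD0325901-treated cells at 2 h was analysed here.

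**Figure D5:**
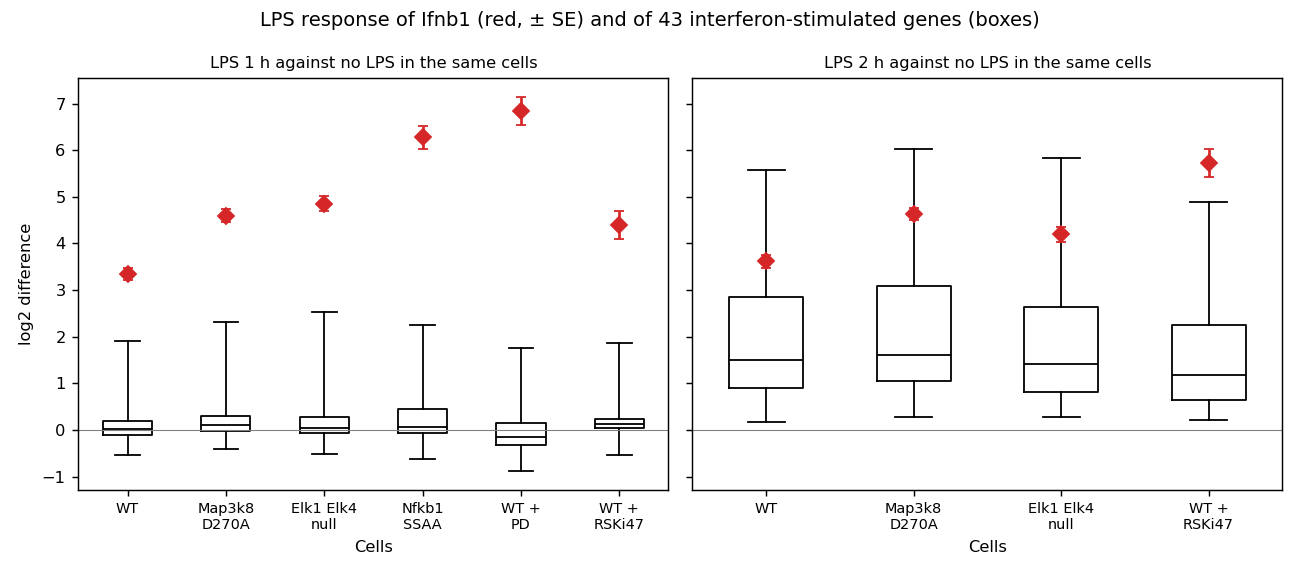
Difference between LPS and no LPS in the same cells (vertical axis, log2) at 1 h (left) and 2 h (right). Red diamonds are Ifnb1 with its standard error, and boxes span the quartiles of the 43 genes with a line at the median and whiskers to the lowest and highest gene: at 1 h Ifnb1 ran from 3.34 in WT to 6.84 in PD0325901-treated cells while the median of the 43 genes lay between -0.15 and 0.13, with PD0325901 measured from 10 min of the inhibitor.

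The time of the first call was compared between the arms followed to 2 h by counts alone, with no test. In WT and in Map3k8[D270A] cells 10 genes were first higher at 1 h and 33 at 2 h. In Elk1-/-Elk4-/- cells 8 were first higher at 1 h and 33 at 2 h, with 2 not called, and under RSKi47 6 and 34, with 3 not called. Of the 10 genes first higher at 1 h in WT, Mx2 and Gbp2 were first higher at 2 h in Elk1-/-Elk4-/- cells, and Mx2, Gbp2, Gbp3 and Parp14 under RSKi47. These first calls are from the fit without the replicate block. With the block more genes were higher at 1 h under RSKi47. Between 1 and 2 h 43 of 43 genes rose in WT and in Map3k8[D270A] cells, 42 in Elk1-/-Elk4-/- and 40 in RSKi47-treated cells, with medians of 1.49, 1.51, 1.31 and 0.97. In the last 3 of these, 32.5%, 34.8% and 29.3% of all genes rose.

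Of other ligands of the receptor, the interferon-α genes Ifna2 and Ifna5 passed the filter on low values only through the groups where they were high, so that their levels are given as a description with no test. Ifna2 ran from 1.39 to 1.47 in WT cells without LPS and from 1.42 to 1.66 at 1 h, and from 3.05 to 3.57 under PD0325901 and 2.21 to 4.03 in Nfkb1[SS/AA] cells at 1 h. Ifna5 ran from 1.43 to 1.84 in WT cells, 2.73 to 3.4 under PD0325901 and 2.02 to 3.55 in Nfkb1[SS/AA] cells at 1 h. All these levels are low beside those of the 43 genes. The interferon-α genes are near-identical copies, so that reads may have been divided among them. The same holds for the members of the Oas, Gbp, Ifit3 and Trim30 families among the 43 genes.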

How the data were processed

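RNA from bone marrow–derived macrophages was sequenced as single-end, strand-specific reads. Per the submitters' processing notes, the authors used mm10, STAR 2.5.1b, RSEM 1.2.29 and DESeq2 1.10.1, and the study's methods name other versions of STAR and RSEM for aligning reads and estimating counts per RefSeq gene. The deposited values are log2-scale normalized expression values of 18098 genes, from -2.4 to 19.81, and the transformation that the authors applied is not stated. One value above 25, far outside this range and of a gene that is not described here, was treated as missing. RSEM divides reads between near-identical copies by estimation, which affects levels in the Ifit, Oas, Gbp and Trim30 families.

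Differences between group means were fitted with limma 3.58.1 in R 4.3.3 (moderated test without trend, Benjamini-Hochberg adjustment over all genes tested, calls at an adjusted p below 0.05). WT, Map3k8[D270A] and Elk1-/-Elk4-/- libraries were fitted together (62 libraries, 11884 genes that reached 10 on the linear scale in 4 libraries or more). Comparisons with Nfkb1[SS/AA], inhibitor and DMSO libraries used all libraries (11971 genes, 3 libraries or more). Differences in response are interaction terms. Simulated data with known changes were used to test the scripts. The depth of each library is not in the files used here, and the study's methods give only a typical yield.

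The genes and lists were chosen with earlier results of these data known. The rule for full values was Ifnb1, the gene of each role with the largest LPS response in WT at 2 h, that with the largest Map3k8[D270A] difference at 2 h, and the 2 largest in each direction in each other arm at its last time, all among called genes. Other genes were named by role. Lists of pathway genes and of markers of macrophages, neutrophils, plasmacytoid and conventional dendritic cells, T and NK cells and B cells were fixed, and one gene of the pathway is not reported here.

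Same-numbered libraries with and without LPS deviated together from their group means, with every correlation over 0.1, in WT (lowest 0.164), Map3k8[D270A] (0.124), Nfkb1[SS/AA] (0.145) and RSKi47-treated cells (0.265) and at 1 h in Elk1-/-Elk4-/- cells (0.141), and the numbers, which the titles repeat over time, were taken to pair them there. Between 1 and 2 h in Map3k8[D270A] cells the lowest was 0.0718, and between arms the numbers did not pair libraries.

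Alternatives were no filter, limma with a trend, quantile normalization, median centring, one fit of all libraries, leaving out each replicate, a replicate block, a term for the set of replicates, each set alone and averaged PD0325901 pairs. The DMSO reference, the 70 min start, the responses at 1 h, the step from 1 to 2 h outside WT, the split of Nfkb1[SS/AA] replicates and the test between sets were added after seeing the data.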

Additional observations from a re-analysis of the deposited data

Results flagged for a closer look

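Of 380 sets of 4 to 10 libraries of one group, 38 had 1 library far from the others by Dixon's test, and chance alone flags about 1 in 20. In WT, replicate 8 had the highest Dhx58 without LPS (10.53), at 0.5 h (10.54) and at 1 h (10.64), the highest Isg15 at 0.5 h (10.03) and the highest Ifit3 at 1 h (11.03), and replicate 7 had the lowest Herc6 (10.6), Mx2 (11.58) and Oas3 (11.6) at 2 h. In Map3k8[D270A] cells the highest values were Ifnb1 in replicate 1 without LPS (4.76), Iigp1 in replicate 3 at 0.5 h (6.66) and Cmpk2 in replicate 5 at 1 h (11.73).

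Elk1-/-Elk4-/- replicate 3 had the highest Dhx58 (11.08), Iigp1 (8.73) and Oas3 (12.74) at 0.5 h, the highest mean of the 43 genes (11.34), Cmpk2 (12.06), Ifih1 (11.73) and Isg15 (11.64) at 1 h, and the highest Isg15 (13.37) at 2 h. Nfkb1[SS/AA] replicate 4 had the highest Oasl1 at 0.5 h (9.03) and 1 h (11.16).

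RSKi47 replicate 4 was the lowest in many of these sets. Without LPS these were those of Ifi44 (6.87), Iigp1 (5.83), Isg15 (9.45), Oas3 (11.99) and Oasl1 (8.29), and at 1 h Dhx58 (10.2), Ifi44 (6.86), Ifit3 (10.39), Mx2 (7.5) and Oas3 (11.97). At 2 h they were the mean of the 43 genes (11.37), Dhx58 (10.52), Dtx3l (12.3), Ifi44 (7.74), Iigp1 (7.12), Mx2 (10.44) and Tap1 (11.38).

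The LPS response differed from that of WT cells for Ifnb1, by 1.26 at 1 h and 1.01 at 2 h in Map3k8[D270A] cells, by 1.51 at 1 h in Elk1-/-Elk4-/-, 2.94 at 1 h in Nfkb1[SS/AA], 3.5 at 1 h under PD0325901 and 2.1 at 2 h under RSKi47. At 2 h it also differed for Ifit3 in Map3k8[D270A] cells (0.68), for Isg15 (-0.68) and Rtp4 (-0.54) in Elk1-/-Elk4-/- cells, and for Dtx3l (-0.51), Isg15 (-0.76) and Mx2 (-1.11) under RSKi47.

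The Map3k8[D270A] difference was smaller in the first set of replicates at 1 h for Gbp5 (-0.82) and Ifih1 (-0.38). At 2 h the second set holds WT replicate 7 alone, and the sets were compared after the values were seen, so that the sizes there describe these libraries only. The Map3k8[D270A] difference was larger in the first set for all 43 genes. Those flagged were Oas2 (1.19), Gbp5 (1.09), Gbp7 (0.99), Mx1 (0.94), Trim30a (0.87), Oasl2 (0.83), Herc6 (0.77), Igtp (0.73), Eif2ak2 (0.72), Samd9l (0.71), Ddx58 (0.7), Irgm1 (0.7), Stat2 (0.69), Ifih1 (0.68), Parp14 (0.61), Dtx3l (0.52), Parp9 (0.5), Adar (0.45), Tor3a (0.37) and Oas1a (0.35).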

How the results depend on the processing

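The depth of each library is not in the files used here and the log scale is not stated, so precision rests on 3 to 6 libraries a group, and only the Map3k8[D270A] cells share an experiment with untreated WT cells. Over settings other than leaving out a replicate, 218 of 265 counts of called genes stayed within 1.5 times the count given, 40 moved and 7 turned in direction, and 259 of 265 Ifnb1 differences kept their direction and call. For WT cells at 2 h the count of higher genes ran from 40 to 43 over the alternatives, and quantile normalization turned Bst2 lower there and ended its call in the other arms at 2 h. The causes of the changes that follow were not tested. The counts show how far calls depend on a setting. Where no share of all genes stands beside a count, it does not set the 43 genes apart from other genes. No pseudocount was varied, since the values are on a log scale.

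Quantile normalization gave 2 called genes (both lower) for WT at 0.5 h, 2 for Map3k8[D270A] against WT at 1 h, 2 for the Map3k8[D270A] response at 2 h, 17 (5 higher, 12 lower) for 1 h of LPS under PD0325901 and 1 for the RSKi47 response at 2 h. It gave an Ifnb1 step of 0.32 from 1 to 2 h in WT, past the threshold, and an Ifnb1 response difference of 0.59 in Elk1-/-Elk4-/- cells at 2 h, past it too. Without the filter 0 genes were called for Map3k8[D270A] at 1 h and 0 for its response at 2 h, and 1 for the RSKi47 response at 2 h. One fit of all libraries gave 0 for Map3k8[D270A] at 1 h, 1 at 2 h, 0 for its response at 2 h and 0 for that of Elk1-/-Elk4-/- cells. In that fit the Ifnb1 differences of 0.61 for Elk1-/-Elk4-/- at 0.5 h and -0.65 for its step from 1 to 2 h lost their calls.

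With the replicate number as a block, the count was 1 for WT at 0.5 h, 11 for RSKi47 at 1 h, 23 for the RSKi47 response at 2 h, 7 for the Nfkb1[SS/AA] response, 3 for the Map3k8[D270A] response at 2 h and 1 at 1 h. The Ifnb1 response difference under RSKi47 at 1 h stayed at 1.06 and gained a call. Between arms the libraries share only a number (correlations of same-numbered WT and Map3k8[D270A] libraries down to -0.449, none highest for its own number), and there the block gave 3, 2, 4 (all lower) and 33 (all lower) genes for Map3k8[D270A] without LPS and at 0.5, 1 and 2 h (3.5%, 2.87%, 7.78% and 14.9% of all genes lower), where it left WT replicates 4 to 6 against Map3k8[D270A] replicates 4 to 6. Under it the differences at 2 h were -0.15 for Cmpk2, -0.11 for Dhx58, -0.08 for Dtx3l and -0.02 for Ifit3. It gave 29 for Nfkb1[SS/AA] without LPS. Where numbers did not pair over time it gave 4 for the Elk1-/-Elk4-/- response at 2 h, with an Ifnb1 value of 0.58 past the threshold, 19 (7 higher, 12 lower) for 1 h of LPS under PD0325901 and 1 for the response there. It moved no other count of called genes by over 1.5 times.

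A term for the set gave 11 genes for Map3k8[D270A] at 2 h and 3 for the response. The first set alone gave 1, 4 and 40 genes without LPS and at 1 and 2 h, and 1 and 40 for the responses at 1 and 2 h. At 2 h 23.8% of all genes were higher in that set and 16.6% responded more. The second set, with 1 WT library at 2 h, put Dtx3l at -0.02 there, and no calls are given for it at 2 h. With DMSO cells as the reference, 2 genes were called without LPS in Elk1-/-Elk4-/-, 4 (lower) in Nfkb1[SS/AA] and 3 (lower) in RSKi47-treated cells. Nfkb1[SS/AA] replicates 1 to 3 gave 0, 0 and 10 genes without LPS and at 0.5 and 1 h and 3 for the response, and replicates 4 to 6 gave 39, 32 and 35, and 9 for LPS at 1 h. Averaged PD0325901 pairs gave 17 at 0.5 h.

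Leaving out each replicate in turn, counts ran from 0 to 2 for Map3k8[D270A] at 1 h, 1 to 12 at 2 h and 0 to 6 for its response. They ran from 5 to 25 for Nfkb1[SS/AA] without LPS, 7 to 19 at 0.5 h and 0 to 2 for its response. For RSKi47 they ran from 15 to 38 without LPS, 2 to 14 at 2 h, 4 to 6 for LPS at 1 h and 1 to 4 for the response at 2 h. Without RSKi47 replicate 2 or 3 the count at 2 h was 3, with 1 higher and 2 lower. Ifnb1 ran from 0.1 to 0.44 for the WT step from 1 to 2 h, 0.41 to 0.7 for the Elk1-/-Elk4-/- response at 2 h and 0.81 to 1.4 for the RSKi47 response at 1 h.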
